A study of Mus musculus with 17 samples.

Results

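The neurofilament genes Nefl, Nefm, Nefh and Ina, the ankyrin genes Ank1, Ank2 and Ank3 and the spectrin genes Sptb, Sptbn1 and Sptbn4 were followed in bulk cortical RNA of 3 mouse genotypes. These 10 genes were selected by symbol from the 56953 genes of the count table, and each was among the 23062 genes that passed the filter on low counts. Ank1 was chosen by its own values, because it was higher in PS19 than in both other genotypes. Its differences from PS19 are therefore given as a description, with no test. The other 9 genes were named for their families.

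The prefrontal cortex of 8-month-old mice on the B6C3F1/J background was sequenced from 5 WT, 6 PS19 and 6 CgA-KO/PS19 animals, with 1 library per sample. PS19 mice, labelled hTau, carry a P301S human Tau 1N4R transgene driven by the Prnp promoter, which is not restricted to a single cell type. CgA-KO/PS19 mice carry the same transgene and lack Chga, the gene of chromogranin A, in the whole body, and this deletion was made in mice of another background and brought in by backcrossing. No group lacked Chga without the transgene, so the deletion was only seen together with Tau.

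Neurofilaments are the intermediate filaments of axons. Nefl, the light chain, forms their core, Nefm and Nefh, the medium and heavy chains, copolymerize with it and carry long side arms, and Ina, alpha-internexin, joins them in central neurons. Ankyrins are adaptors that tie membrane proteins to spectrin, and spectrins are long actin-crosslinking rods under the membrane. Ank3, which encodes ankyrin-G, and Sptbn4, which encodes beta-IV spectrin, organize the axon initial segment and the nodes of Ranvier, Ank2, which encodes ankyrin-B, and Sptbn1, which encodes beta-II spectrin, line the axon shaft and other membranes, and Ank1 and Sptb, which encode ankyrin-R and beta-I spectrin, are known from the red blood cell and are also made in neurons. Neurofilament proteins are released by injured axons and are measured in fluid as markers of neurodegeneration.

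Levels are in CPM, counts scaled by TMM to a common library total. The libraries held 8838334 (WT replicate 4) to 227651681 counts. About 3 deposited counts stood for 1 fragment, since values of 3 and 6 outnumbered both neighbouring values in all 17 libraries. Chga was at 0 counts in all 6 CgA-KO/PS19 libraries, which allows at most 0.26 CPM in the shallowest of them if a 0 is taken as up to 3 fragments (9 counts, counting error only), and ranged from 152 to 180 CPM in the other 11. Cortical neuron markers were present in every library, with Slc17a7 between 492 and 1645 CPM and Tbr1 between 130 and 309 CPM. The summed level of 20 striatum markers was 1858 to 5102 CPM in WT, 665 to 751 CPM in PS19 and 618 to 3589 CPM in CgA-KO/PS19, with no marker at 0 throughout a genotype. CgA-KO/PS19 replicates 1 to 3 stood apart from replicates 4 to 6, with 13.8 to 18.2% of counts on mitochondrial genes against 3.84 to 10.9%. In every genotype, replicates 1 to 3 had the Y-linked gene Ddx3y above 1 CPM, at 49.8 to 76.8 CPM. The others were below it, at 0 to 0.058 CPM. The paper states how many males and females each group held, without naming the sex of each library. The split by Ddx3y matches those numbers in every genotype, so the classes above and below 1 CPM are read here as males and females. WT replicate 4 and CgA-KO/PS19 replicate 6 stood apart in another way. In 2096 genes whose longest transcript has a GC content of at least 55%, their median level was 0.50 and 0.39 below the gene's own mean on the log2(CPM + 1) scale, against deviations of -0.24 to 0.17 in the other 15 libraries. These deviations also differed by genotype. They were 0.097 to 0.17 in PS19, 0.040 to 0.10 in the other WT libraries and -0.24 to 0.089 in the other CgA-KO/PS19 libraries. Every CgA-KO/PS19 library was thus below every PS19 library. The part of this in the genotype differences of GC-rich genes was not tested. PS19 replicates 4, 5 and 6 and CgA-KO/PS19 replicates 1 and 3 were the closest pairs, with SDs of the log2 ratio of 0.21 to 0.25 over 3761 genes.

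The 10 genes covered a wide range of levels. In CPM per kilobase of annotated exon, the order over all libraries was Nefl (162), Ina (92.9), Nefm (72.3), Sptbn1 (64.0), Nefh (27.9), Ank2 (24.1), Sptb (20.2), Sptbn4 (18.3), Ank3 (10.9) and Ank1 (4.08). In PS19 the level of Ank2 per kilobase was 23.5 ± 1.92 (SD, n = 6) and that of Sptb 22.9 ± 1.37 (SD, n = 6), so these neighbours were within their spread. In WT, Nefm at 77.0 ± 17.2 (SD, n = 5) overlapped in spread with Ina at 93.4 ± 10.5 and Sptbn1 at 65.8 ± 5.28 per kilobase, and Nefh at 26.1 ± 10.0 with Ank2 at 23.8 ± 3.42. Exon lengths were the union over all annotated isoforms, 34.8 kb for Ank3 and 35.0 kb for Ank2 against 3.38 kb for Nefl, so the long genes with many isoforms come out lower on this scale than they would per transcript.

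Positions are given for GRCm38. Nefl lies on the plus strand at chr14:68083863-68089095 and Nefm on the minus strand at chr14:68082590-68124846. Their annotated exons share 1108 bases on opposite strands, 32.8% of the exonic bases of Nefl and 19.2% of those of Nefm. Nefh lies at chr11:4938754-4948064, Ina at chr19:47014698-47025327, and Ina shares 14.1% of its exonic bases with the antisense gene Nt5c2. Whether strand was used in the counting is not given in the sources used here, so reads of Nefl and Nefm, and of Ina and Nt5c2, may be partly exchanged. Ank1 lies at chr8:22974844-23150497, Ank2 at chr3:126921612-127499350, Ank3 at chr10:69398773-70027438, Sptb at chr12:76580488-76710547, Sptbn1 at chr11:30099395-30268175 and Sptbn4 at chr7:27356383-27447686. Sptb lies 25.8 Mb from Chga on the same chromosome, and whether it sits on sequence carried over with the deleted allele was not tested.

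The start regions of Ina, Sptb and Sptbn4 are shown because the pairs of Ina with the other neurofilament genes, and of Sptb with Sptbn4, are described over the libraries after the levels. Each RefSeq window (GRCm38.p6) runs from 250 bases before to 50 bases after an annotated start, 5′ to 3′ on the gene's strand, with GC boxes in capitals (GGGCGG, or CCGCCC on the other strand). Of the 10 genes, 5 had windows in the table, 12 windows in all, and for Sptbn4 the window farthest upstream is shown. The windows lie at chr19:47014431-47014730 on the plus strand for Ina, chr12:76710498-76710797 on the minus strand for Sptb and chr7:27446540-27446839 on the minus strand for Sptbn4.
Ina: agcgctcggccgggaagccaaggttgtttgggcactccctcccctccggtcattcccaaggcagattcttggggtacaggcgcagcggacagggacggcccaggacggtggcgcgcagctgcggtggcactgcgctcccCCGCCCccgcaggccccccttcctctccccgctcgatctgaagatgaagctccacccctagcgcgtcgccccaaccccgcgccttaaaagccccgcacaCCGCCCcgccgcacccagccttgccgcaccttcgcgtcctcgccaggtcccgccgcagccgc
Sptb: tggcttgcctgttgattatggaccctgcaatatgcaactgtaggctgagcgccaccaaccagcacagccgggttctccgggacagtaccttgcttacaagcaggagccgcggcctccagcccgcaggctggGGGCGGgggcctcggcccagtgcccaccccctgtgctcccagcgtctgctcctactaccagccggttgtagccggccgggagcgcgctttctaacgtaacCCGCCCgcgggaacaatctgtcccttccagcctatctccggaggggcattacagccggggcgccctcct
Sptbn4: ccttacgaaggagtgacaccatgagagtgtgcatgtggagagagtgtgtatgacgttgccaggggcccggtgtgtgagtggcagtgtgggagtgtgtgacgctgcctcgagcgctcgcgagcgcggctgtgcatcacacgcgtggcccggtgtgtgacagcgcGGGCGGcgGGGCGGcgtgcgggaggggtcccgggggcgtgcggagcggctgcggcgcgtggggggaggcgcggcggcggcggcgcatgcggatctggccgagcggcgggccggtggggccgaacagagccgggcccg
Each of these windows held 2 GC boxes, a motif found in 35.9% of all 32544 distinct windows. None held TATAAA or CCAAT on either strand, which 13.6% and 37.4% of all windows do. The windows shown for Ina, Sptb and Sptbn4 held 32, 21 and 41 CpG dinucleotides, against a median of 7 over all windows. The other windows of Sptbn4, not shown, held 33, 24 and 1 CpG dinucleotides and 1, 4 and 1 GC boxes, and the first of them also held CCAAT.

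**Figure D1:**
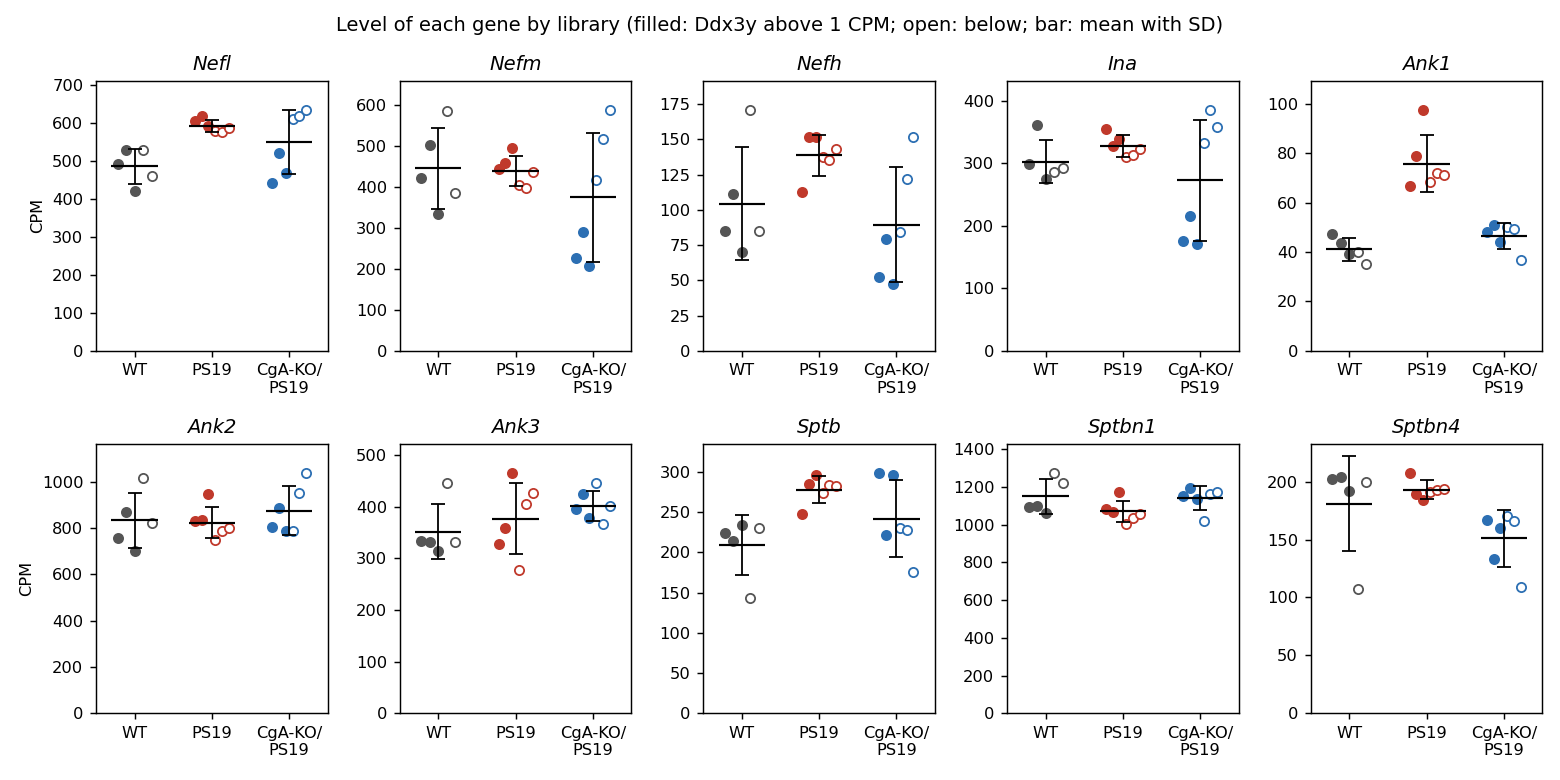
CPM (linear axis from 0) of each of the 10 genes in every library of the 3 genotypes, with filled points for libraries with Ddx3y above 1 CPM, open points for the others, and bars for the mean with its SD. The 6 PS19 libraries of Ank1 sit between 66.7 and 97.5, above all others, and the 3 filled CgA-KO/PS19 points sit below the 3 open ones for Nefl, Nefm, Nefh and Ina.

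The neurofilament genes did not pass the test in any comparison of genotypes. In PS19 against WT, 0 of the 9 genes other than Ank1 had a Benjamini-Hochberg adjusted p under 0.05 in edgeR's quasi-likelihood test, against 5.9% of all genes tested, and 2 of the 9 (Nefl and Sptb) had an unadjusted p under 0.05. When CgA-KO/PS19 was set against PS19, 0 of 9 passed, against 9.72% of all genes, and again 2 (Nefh and Sptbn4) had an unadjusted p under 0.05. When it was set against WT, where Ank1 was tested too, 0 of 10 passed, against 6.46%, and 0 had an unadjusted p under 0.05. The median log2 fold change of the 9 genes in these comparisons was 0.10, -0.20 and -0.013, beside 0.0097, 0.026 and 0.0090 over all genes tested. PS19 enters both of the first comparisons and WT and CgA-KO/PS19 enter 2 each, so the comparisons are not independent.

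Nefl, the core subunit, was measured at 494, 529, 421, 528 and 461 CPM in the WT libraries and at 606, 618, 593, 579, 577 and 587 CPM in the PS19 libraries. Every PS19 library was above every WT library, as happened in either direction for 9.52% of all genes. The means were 487 ± 46.4 (SD, n = 5) in WT and 593 ± 16.1 CPM (SD, n = 6) in PS19, a log2 fold change of 0.29 ± 0.10 (SE), and edgeR's quasi-likelihood test gave an adjusted p of 0.118. Over the alternatives the adjusted p ranged from 0.0134 to 0.456, and DESeq2 (0.0467), limma voom with quality weights (0.0134) and the fit of these 2 genotypes alone (0.0266) called it. The CgA-KO/PS19 libraries had 443, 522, 468, 612, 619 and 635 CPM, so that this genotype reached from within the WT range to above the PS19 range. Its mean was 550 ± 83.5 CPM (SD, n = 6), which gave a log2 fold change of -0.11 against PS19 (95% interval -0.32 to 0.098).

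Nefm, which adds side arms to the filament, had 421, 502, 333, 585 and 386 CPM in WT and 444, 460, 495, 404, 396 and 436 CPM in PS19. The PS19 libraries lay inside the WT range, and the fitted log2 difference was -0.020 (95% interval -0.51 to 0.47). The CgA-KO/PS19 libraries had 227, 289, 206, 418, 517 and 588 CPM, the widest relative spread of this gene in any genotype, with a coefficient of variation of 42.3% against 8.3% in PS19. The log2 fold change of CgA-KO/PS19 against PS19 was -0.23 (95% interval -0.70 to 0.23).

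Nefh, the heavy subunit of large axons, had 84.8, 111, 70.3, 171 and 84.8 CPM in WT and 113, 152, 152, 137, 135 and 144 CPM in PS19. Only WT replicate 4 was above the PS19 libraries, and the other 4 WT libraries were below all of them. The log2 fold change of PS19 against WT was 0.41 ± 0.27 (SE, adjusted p = 0.410 by edgeR), and without WT replicate 4 it was 0.66, still not called. Limma voom with quality weights (0.60, adjusted p = 0.0247) and the fit with the myelin score as a covariate (0.58, 0.0478) called it. In CgA-KO/PS19 Nefh had 52.3, 79.0, 47.0, 84.5, 122 and 152 CPM, and replicates 1 to 4 were below every PS19 library. The log2 fold change against PS19 was -0.63 ± 0.26 (SE, adjusted p = 0.120 by edgeR). It became -0.85 with an adjusted p of 0.0385 by edgeR without CgA-KO/PS19 replicate 6 and was also called by limma voom with quality weights (-0.87, adjusted p = 0.00518).

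Ina had 298, 361, 276, 286 and 293 CPM in WT and 356, 327, 339, 310, 313 and 324 CPM in PS19. Both means, 303 ± 33.9 (SD, n = 5) and 328 ± 17.1 CPM (SD, n = 6), were within the spread of the WT libraries. CgA-KO/PS19 had 175, 216, 171, 332, 386 and 359 CPM. The log2 fold change of CgA-KO/PS19 against PS19 was -0.26 (95% interval -0.64 to 0.11, adjusted p = 0.348 by edgeR), a mean that falls in the gap between the 3 low and the 3 high libraries.

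With the striatum marker score as a covariate, Nefl, Nefh and Ina turned direction in PS19 against WT. Nefl then had a log2 fold change of -0.10 and was not called, Nefh of -0.70 (adjusted p = 0.0369) and Ina of -0.67 (0.0139) by edgeR, in a fit that called 17.1% of all genes. Nefm, which was already at -0.020 without the covariate, was at -1.04 (adjusted p = 0.00282). The score ran from 0.51 to 2.19 in WT and from -1.17 to -1.04 in PS19, with no overlap, so in this comparison the covariate and the genotype cannot be told apart.

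The neurofilament genes split the CgA-KO/PS19 libraries into 2 sets of 3. Replicates 1 to 3 had 206 to 289 CPM of Nefm, 171 to 216 of Ina, 47.0 to 79.0 of Nefh and 443 to 522 of Nefl. Replicates 4 to 6 had 418 to 588, 332 to 386, 84.5 to 152 and 612 to 635 CPM of the same genes, with no overlap in any of them. The mean levels of replicates 1 to 3 were 241 ± 43.1 for Nefm and 187 ± 25.3 CPM for Ina (SD, n = 3), against 508 ± 85.7 and 359 ± 26.8 CPM in replicates 4 to 6. The same split by Ddx3y ran the other way in PS19 for Nefm, with 444 to 495 against 396 to 436 CPM, and also for Nefl and Ina. Nefh overlapped there, with 113 to 152 against 135 to 144 CPM. In WT all of these genes overlapped, Nefm with 333 to 502 against 386 to 585 CPM.

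**Figure D2:**
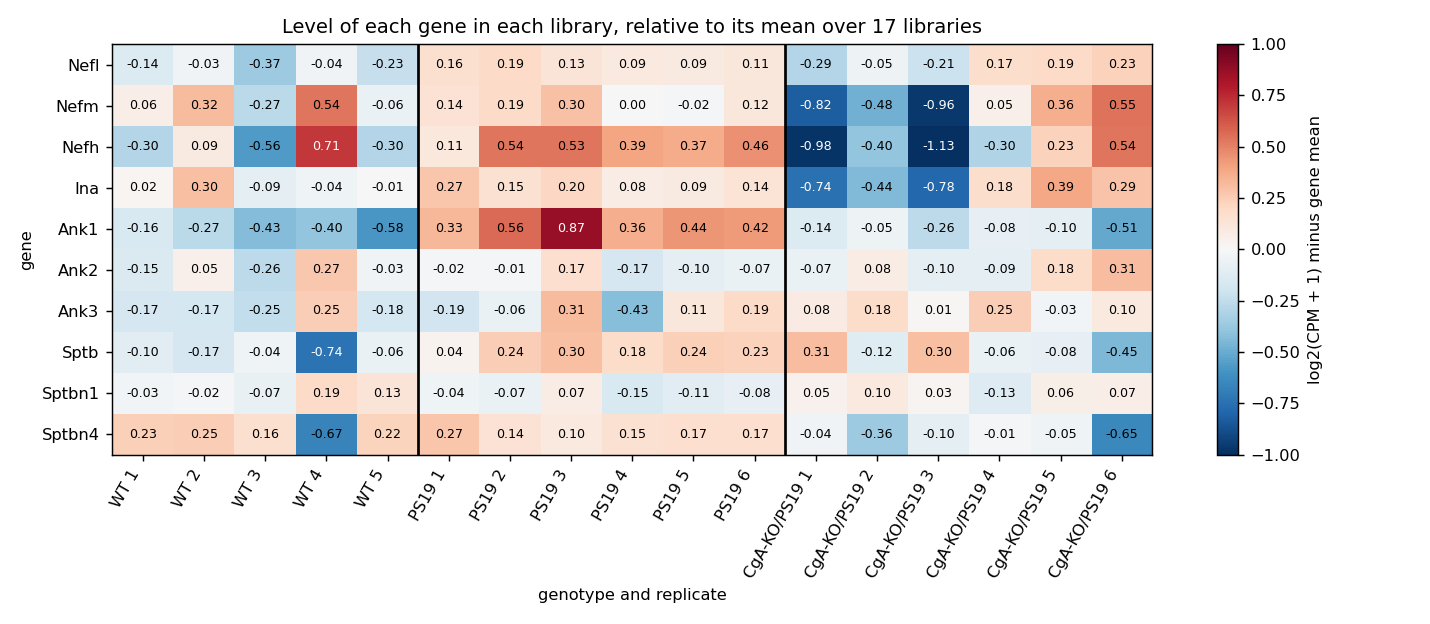
Heat map of log2(CPM + 1) of each gene minus its mean over all 17 libraries, with genes in rows, libraries in columns and black lines between genotypes. Nefm, Nefh and Ina are lowest in CgA-KO/PS19 replicates 1 and 3 (Nefh at -0.98 and -1.13), Ank1 is above its mean in the PS19 libraries only, and Sptb and Sptbn4 are lowest in WT replicate 4 and CgA-KO/PS19 replicate 6.

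A test of this split was chosen after the values were seen, as an interaction of genotype with the Ddx3y class in edgeR over all 17 libraries. With the classes read as males and females, it compares the genotype difference between the sexes. The difference between classes in the log2 fold change of CgA-KO/PS19 against PS19 was -1.05 ± 0.16 (SE) for Ina (adjusted p = 0.00143), -1.25 ± 0.26 for Nefm (adjusted p = 0.00714), -0.44 ± 0.13 for Nefl (adjusted p = 0.0437) and -1.01 ± 0.39 for Nefh (adjusted p = 0.104). In this test 11.7% of all genes passed, and Nefl, Nefm and Ina were 3 of the 9 genes tested. Against WT, Ina passed (-1.04 ± 0.17, adjusted p = 0.00473, with 5.47% of all genes passing), while Nefm did not (-0.86 ± 0.27, adjusted p = 0.0791).

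Within the libraries with Ddx3y above 1 CPM, 5 of the 9 genes passed in CgA-KO/PS19 against PS19, where 31.1% of all genes did. These were Nefh with a log2 fold change of -1.21 ± 0.23 (adjusted p = 0.00513), Nefm with -0.94 ± 0.17 (0.00364), Ina with -0.85 ± 0.13 (0.00185), Nefl with -0.33 ± 0.10 (0.0377) and Sptbn4 with -0.32 ± 0.10 (0.0366), all with 3 libraries per genotype in edgeR. Within the libraries below 1 CPM, 0 of 9 passed, where 0.806% of all genes did, and Nefm (0.28), Ina (0.17) and Nefl (0.080) had log2 fold changes above 0. A call within 1 class and not in the other is no test of the difference, which the interaction gives.

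Other measures moved with the same 3 libraries. In CgA-KO/PS19 replicates 1 to 3, the summed level of 12 myelin and oligodendrocyte markers was 2985 to 3381 CPM against 1824 to 1934 CPM in replicates 4 to 6, and Mobp, a myelin protein gene, was 683 to 797 against 233 to 304 CPM. The 7 fast-spiking interneuron markers include Gad1 and Gad2, which mark GABAergic neurons in general. The summed level of all 7 was 788 to 828 against 1206 to 1292 CPM. That of 8 astrocyte markers was 3982 to 6220 against 1153 to 3293 CPM. The score of 6 cortical projection neuron markers, the mean centred log2(CPM + 1), was -0.73 to -0.13 against 0.19 to 0.35, and the striatum score was 1.69 in replicates 1 and 3 and -0.18 in replicate 2 against -1.19 to -1.06. None of the myelin, fast-spiking, astrocyte or striatum markers was at 0 throughout either set. With the myelin score as a covariate, the log2 fold changes of CgA-KO/PS19 against PS19 were 0.10 for Nefm, 0.039 for Nefl and -0.18 for Nefh, that of Ina stayed below 0, and none of these was called. The Ddx3y class, the marker levels and the mitochondrial share moved together in these libraries and cannot be told apart, and their part in the low neurofilament levels was not tested. Fewer cells of a type and less RNA per cell cannot be told apart in bulk RNA either.

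**Figure D3:**
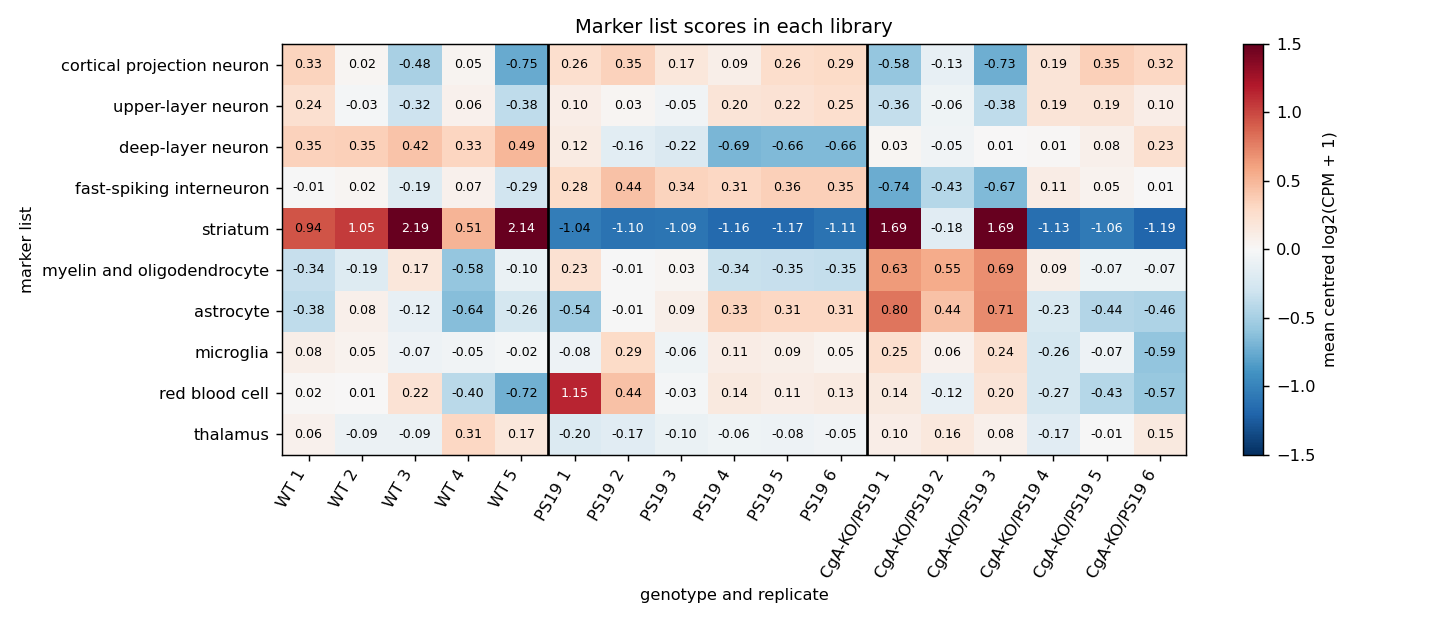
Heat map of marker scores, the mean centred log2(CPM + 1) of each list, with lists in rows and libraries in columns. CgA-KO/PS19 replicates 1 to 3 carry the highest myelin scores (0.55 to 0.69) and the lowest fast-spiking interneuron scores (-0.74 to -0.43), and the fast-spiking score is 0.28 to 0.44 in PS19 against -0.29 to 0.068 in WT.

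Ank1 was the gene chosen by its readout. It had 47.4, 43.7, 39.0, 39.9 and 35.0 CPM in WT, 66.7, 78.7, 97.5, 68.2, 72.1 and 71.4 CPM in PS19, and 48.0, 51.0, 44.0, 50, 49.4 and 36.8 CPM in CgA-KO/PS19. All 6 PS19 libraries were above all 11 others, the lowest of them at 66.7 against a highest of 51.0 CPM elsewhere. The fitted log2 difference was 0.89 between PS19 and WT, a fold of 1.85, and -0.70 between CgA-KO/PS19 and PS19. These contrasts chose the gene and carry no test. They ranged from 0.80 to 0.95 and from -0.76 to -0.61 over the alternatives, and within the Ddx3y classes they were 0.90 and 0.94, and -0.75 and -0.65.

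CgA-KO/PS19 against WT was not used to choose Ank1, and there it did not pass. The means were 46.5 ± 5.35 (SD, n = 6) and 41.0 ± 4.74 CPM (SD, n = 5), a log2 fold change of 0.18 ± 0.12 (SE, adjusted p = 0.389 by edgeR) with a 95% interval of -0.060 to 0.42. The libraries overlapped, where those of 3.6% of all genes did not. The low neurofilament levels of CgA-KO/PS19 replicates 1 to 3 had no counterpart in Ank1, which was 44.0 to 51.0 CPM there and 36.8 to 50 CPM in replicates 4 to 6.

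Ankyrin-R is a red blood cell protein, and the summed level of 8 red blood cell markers was 105 to 303 CPM in WT, 225 to 692 CPM in PS19 and 118 to 298 CPM in CgA-KO/PS19. Their highest sum was in PS19 replicate 1, a single library, where Ank1 was at 66.7 CPM, the lowest of its PS19 range of 66.7 to 97.5 CPM. Pvalb, which marks fast-spiking interneurons, had 61.4 to 75.9 CPM in PS19 against 14.5 to 37.8 CPM in WT and 21.5 to 47.6 CPM in CgA-KO/PS19, and thus did not overlap either. It was higher in PS19 than in WT (log2 fold change 1.37 ± 0.24, adjusted p = 0.00244 by edgeR) and lower in CgA-KO/PS19 than in PS19 (-0.88 ± 0.22, adjusted p = 0.0219). Of the 7 genes on the fast-spiking interneuron list, 2 passed higher in PS19 than in WT, Pvalb and Kcns3. Gad2 passed lower (-0.62 ± 0.15, adjusted p = 0.0202 by edgeR), and 4 passed lower in CgA-KO/PS19 than in PS19. The summed level of the 7 was 1313 to 1511 CPM in WT, 1447 to 1657 CPM in PS19 and 788 to 1292 CPM in CgA-KO/PS19. None was at 0 throughout a genotype. Because Gad1 and Gad2 mark GABAergic neurons in general, this sum is not particular to fast-spiking cells. The part of red blood cell RNA and of fast-spiking interneurons in the Ank1 level was not tested.

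The genes whose level was most like that of Ank1 over the 17 libraries were Lynx1 (Pearson r = 0.93), Zfp296 (0.92), Syde1 (0.92), Iqsec1 (0.91) and Vamp1 (0.90). This is a description over libraries that share genotypes. Lynx1, which encodes a modulator of nicotinic receptors, had means of 305, 539 and 329 CPM in WT, PS19 and CgA-KO/PS19, and Vamp1, which encodes a synaptic vesicle fusion protein, had 113, 242 and 135 CPM. Among the genes most like Nefh were Gm41505 (0.96), Timm17a (0.95), Ptprk (0.95) and Opcml (0.94), of which Opcml, a cell adhesion gene, had means of 407, 456 and 351 CPM. None of the genes named was in both sets.

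**Figure D4:**
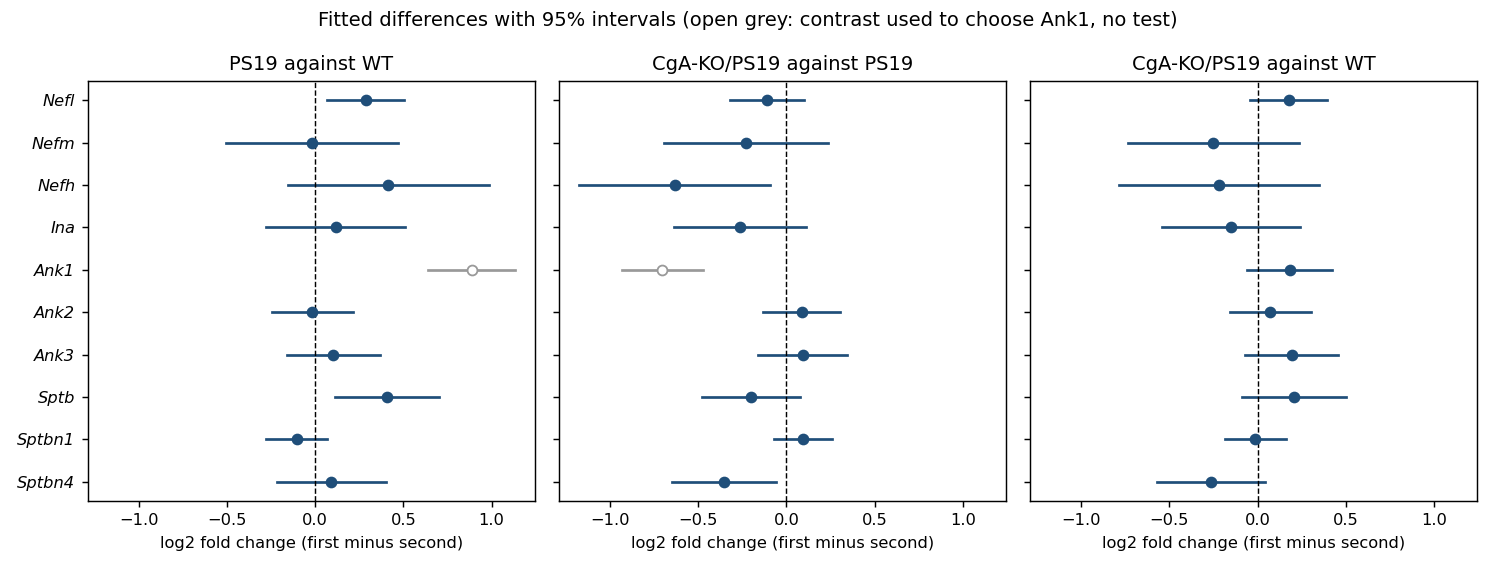
Fitted log2 fold changes of the 10 genes (points) with 95% intervals (lines) in the 3 comparisons, the first genotype minus the second, on a shared linear axis with a dashed line at 0. Grey open points are the Ank1 contrasts that chose it and have no test. Nefh has the widest intervals (-1.17 to -0.092 in CgA-KO/PS19 against PS19) and Sptbn1 the narrowest.

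Ank2 and Ank3 did not pass in any comparison. Ank2 had 701 to 1015 CPM in WT (median 822), 749 to 946 in PS19 (median 815) and 786 to 1039 CPM in CgA-KO/PS19 (median 845). The log2 difference was -0.017 (95% interval -0.25 to 0.21) for PS19 against WT and 0.088 (-0.13 to 0.31) for CgA-KO/PS19 against PS19. Ank3 had medians of 332, 382 and 398 CPM, with ranges of 315 to 445, 278 to 466 and 367 to 445 CPM. Its log2 difference was 0.10 (95% interval -0.16 to 0.37) for PS19 against WT and 0.19 (-0.070 to 0.46) for CgA-KO/PS19 against WT. WT replicate 4 gave the WT maximum of both genes.

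Sptb, the spectrin that pairs with ankyrin-R in the red blood cell, had 225, 215, 234, 144 and 231 CPM in WT and 247, 285, 296, 274, 284 and 282 CPM in PS19. All PS19 libraries were above all WT libraries. The means were 210 ± 37.5 (SD, n = 5) and 278 ± 16.7 CPM (SD, n = 6), a log2 fold change of 0.41 ± 0.14 (SE, adjusted p = 0.0963 by edgeR), and limma voom with quality weights (0.36, adjusted p = 0.0121) and the fit of these 2 genotypes alone (0.40, 0.0454) called it. Over the alternatives the adjusted p ranged from 0.00282 to 0.286. In CgA-KO/PS19 Sptb had 299, 222, 297, 230, 227.7 and 176 CPM, of which replicates 1 and 3 were just above the PS19 range and replicate 6 was below 4 of 5 WT libraries. Its log2 fold change against PS19 was -0.20 (95% interval -0.48 to 0.077).

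Sptbn1 had the narrowest intervals of the 10 genes, with levels of 1061 to 1276 CPM in WT, 1004 to 1174 in PS19 and 1022 to 1197 CPM in CgA-KO/PS19. The log2 differences were -0.11 (95% interval -0.28 to 0.067) for PS19 against WT, 0.092 (-0.072 to 0.26) for CgA-KO/PS19 against PS19 and -0.013 (-0.19 to 0.16) for CgA-KO/PS19 against WT.

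Sptbn4 had 202, 204, 192, 108 and 200 CPM in WT, 208, 190, 184, 191, 193 and 193 CPM in PS19 and 167, 133, 160, 171, 166 and 109 CPM in CgA-KO/PS19. Every CgA-KO/PS19 library was below every PS19 library, as happened in either direction for 6.63% of all genes, and below 4 of the 5 WT libraries. The means of 151 ± 24.6 and 193 ± 7.96 CPM (SD, n = 6 each) gave a log2 fold change of -0.35 ± 0.14 (SE, adjusted p = 0.110 by edgeR). Without WT replicate 4, the library with 108 CPM, the adjusted p was 0.0225 (log2 fold change -0.36), and the gene was then also called against WT (-0.40, adjusted p = 0.0280). The fit without both WT replicate 4 and CgA-KO/PS19 replicate 6, chosen after the values were seen, gave -0.28 (adjusted p = 0.0181) against PS19 and -0.32 (0.0185) against WT by edgeR. GC-rich genes were low in WT replicate 4 and CgA-KO/PS19 replicate 6, and the longest transcript of Sptbn4 has a GC content of 63.7%, the highest of the 10 genes, whose range is 47.6 to 63.7%. Nefh (58.4%), Nefm (57.8%), Sptb (57.0%), Ank1 (57.0%) and Ina (55.5%) also have a GC content above 55%. In both libraries Nefh and Nefm were above their own means and Sptb was below its own. Ank1 was also below its own mean there (-0.40 and -0.51 on the log2 scale), as in every WT and CgA-KO/PS19 library. Ina was below its own mean in WT replicate 4 (-0.040) and above it in CgA-KO/PS19 replicate 6 (0.29). The part of GC content in these values was not tested.

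Partners of these genes were looked at in lists, and some of them passed. Of 15 membrane skeleton genes, 0 passed in PS19 against WT, and Add3, which encodes an adducin, passed as higher in CgA-KO/PS19 against PS19 (log2 fold change 0.54 ± 0.13, adjusted p = 0.0191 by edgeR). The background shares of genes called are those given above, 5.9, 9.72 and 6.46%.

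In the list of 22 initial segment and node genes, Cntnap1, which encodes the paranodal protein Caspr, was lower in CgA-KO/PS19 than in PS19 (-0.50 ± 0.13, adjusted p = 0.0258 by edgeR), with means of 236 ± 38.1 and 335 ± 21.5 CPM (SD, n = 6 each) and no overlap. None of the 22 passed in CgA-KO/PS19 against WT. The median log2 fold change of the list was 0.023, -0.18 and -0.058 in the 3 comparisons. The score of the list was -0.29 to -0.22 in CgA-KO/PS19 replicates 1 to 3 against 0.036 to 0.082 in replicates 4 to 6, and the part of this gap in the lower values was not tested.

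Of 9 other intermediate filament genes, Vim, which encodes vimentin, was higher in PS19 than in WT (0.46 ± 0.13, adjusted p = 0.0451 by edgeR), Lmnb2, which encodes a nuclear lamin, was lower in CgA-KO/PS19 than in PS19 (-0.39 ± 0.11, adjusted p = 0.0342), and 0 passed in CgA-KO/PS19 against WT. Of 8 genes for neurofilament transport, linkage and turnover, 0 passed in PS19 against WT, and Dync1h1, the heavy chain of the dynein motor, was lower in CgA-KO/PS19 than in PS19 (-0.48 ± 0.14, adjusted p = 0.0362). Against WT, the kinesin heavy chain genes Kif5a (1.22 ± 0.26, adjusted p = 0.00973) and Kif5b (0.85 ± 0.18, adjusted p = 0.00926) were higher in CgA-KO/PS19. The mean of Kif5a was 4134 ± 1805 in CgA-KO/PS19 (SD, n = 6), against 1780 ± 302 CPM in WT (SD, n = 5). The summed level of these 8 genes, in which abundant genes such as Kif5a weigh most, was 8720 to 9146 CPM in CgA-KO/PS19 replicates 1 to 3. It was 5622 to 5778 CPM in replicates 4 to 6 and 3999 to 4907 CPM in WT. The score of the list, in which each gene weighs alike, overlapped between the sets. It was 0.016 to 0.26 in replicates 1 to 3, -0.011 to 0.079 in replicates 4 to 6 and -0.33 to -0.079 in WT. The part of the 3 libraries that stood apart in these differences was not tested.

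Long transcripts were also looked at as a class. The 2776 genes with at least 8 kb of annotated exon, the length class of all the ankyrins and spectrins here, had median log2 fold changes of -0.047, -0.010 and -0.074 in the 3 comparisons, beside 0.0097, 0.026 and 0.0090 over all genes.

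Once the mean of each genotype was removed, 5 of the 6 pairs among the 4 neurofilament genes covaried from library to library. Of the 45 pairs among the 10 genes, 13 had an adjusted permutation p under 0.05 (Pearson r over 17 libraries, 100000 two-sided permutations within genotypes, Benjamini-Hochberg adjustment over the 45 pairs). Some of these pairs did not pass by Spearman rho. Nefl and Nefm had r = 0.95 (permutation p = 5e-05, adjusted p = 0.00112) and Spearman rho = 0.97 (permutation p = 3e-05, adjusted p = 0.00135), and r was 0.95 without the 2 libraries farthest from the median of Nefl. Nefm and Nefh had r = 0.94 (permutation p = 2e-05, adjusted p = 0.0009) and rho = 0.89 (permutation p = 0.00019, adjusted p = 0.00427), with r = 0.89 without 2 libraries. Nefm and Ina had r = 0.90 (permutation p = 0.00307, adjusted p = 0.0138) and rho = 0.86 (permutation p = 0.00452, adjusted p = 0.0291), with r = 0.84 without 2 libraries. The pair that did not pass was Nefh and Ina (r = 0.73, permutation p = 0.0187, adjusted p = 0.0562, and rho = 0.65, permutation p = 0.0268, adjusted p = 0.101), with r = 0.86 without 2 libraries.

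The CgA-KO/PS19 libraries formed 2 sets, and these values include the gap between the sets. With the means of genotype and Ddx3y class removed, r was 0.83 for Nefl and Nefm, 0.96 for Nefm and Nefh and 0.68 for Nefm and Ina, given as values with no test. Nefl and Nefm also share exonic bases, and its part in their r was not tested. Ank1 stood outside this block, with r of -0.066 to 0.013 with the 4 neurofilament genes, the largest in size with Nefh (permutation p = 0.811, adjusted p = 0.964, rho = 0.11, permutation p = 0.701, adjusted p = 0.789), and this r was 0.40 without the 2 farthest libraries.

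Sptb had a negative r with Nefl (-0.74, permutation p = 0.00954, adjusted p = 0.0358, and rho = -0.68, permutation p = 0.00931, adjusted p = 0.0524) and with Nefm (-0.78, permutation p = 0.00188, adjusted p = 0.0106, and rho = -0.68, permutation p = 0.0112, adjusted p = 0.0561), which became -0.61 and -0.64 without the 2 farthest libraries. Its r of -0.54 with Ina did not pass (permutation p = 0.0979, adjusted p = 0.186, and rho = -0.45, permutation p = 0.171, adjusted p = 0.321). Its r with Nefh was -0.84 (permutation p = 0.00247, adjusted p = 0.0123), with rho = -0.63 (permutation p = 0.0229, adjusted p = 0.0936), -0.65 without CgA-KO/PS19 replicate 6 and WT replicate 4, and -0.76 with class means removed. Sptb and Sptbn4 had r = 0.80 (permutation p = 0.0183, adjusted p = 0.0562) and rho = 0.51 (permutation p = 0.0733, adjusted p = 0.202), and r was 0.092 without the same 2 libraries, so that relation rests on them. Ank2 followed Nefh (r = 0.82, permutation p = 0.00026, adjusted p = 0.0039, rho = 0.76, permutation p = 0.00372, adjusted p = 0.0279, and r = 0.64 without these 2 libraries) and Sptbn1 (r = 0.76, permutation p = 0.00108, adjusted p = 0.00972, rho = 0.75, permutation p = 0.00146, adjusted p = 0.0208, and r = 0.71 without them). Ank2 also passed by r with Sptb (r = -0.72, permutation p = 0.00642, adjusted p = 0.0263) and with Sptbn4 (r = -0.70, permutation p = 0.0134, adjusted p = 0.0463). Neither pair passed by rho (permutation p = 0.0403, adjusted p = 0.129, and permutation p = 0.0794, adjusted p = 0.202). Without these 2 libraries r was -0.32 and -0.16.

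**Figure D5:**
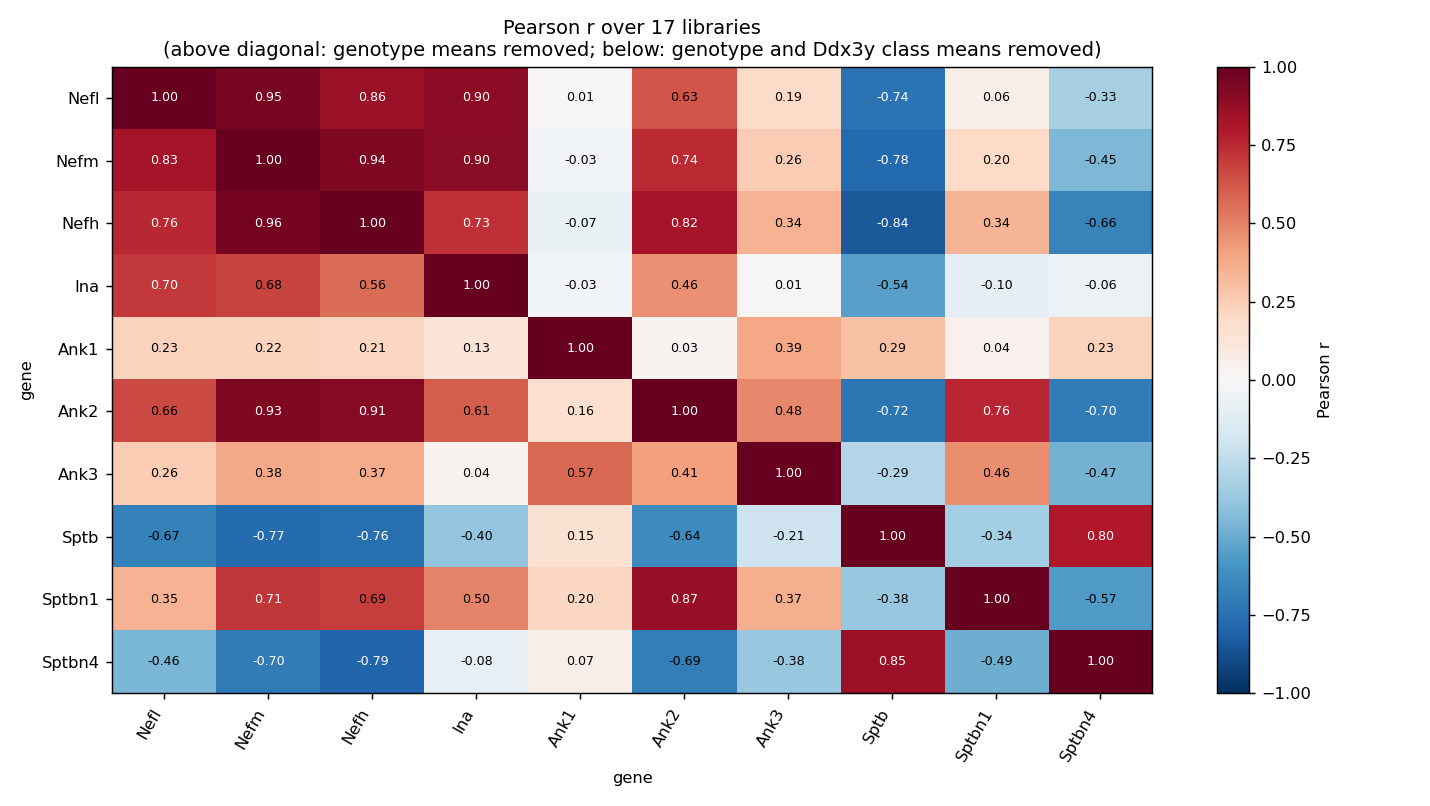
Heat map of Pearson r of log2(CPM + 1) over 17 libraries for each pair of the 10 genes, with genotype means removed above the diagonal and means of genotype and Ddx3y class removed below it. Nefl, Nefm, Nefh and Ina form a block of r from 0.73 to 0.95 above the diagonal, and Sptb is negative with each of them.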

How the data were processed

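Poly(A) RNA was sequenced from prefrontal cortex. The authors trimmed reads with Trimmomatic 0.39, aligned them with STAR 2.7.10b to mm10 and quantified genes with StringTie 1.3.6, per the labels and the study's methods, and deposited whole-number counts per gene without normalization. The annotation release and the use of strand are not given in the sources used here. StringTie derives counts from coverage, so that about 3 deposited counts stand for 1 fragment, and the tests rest on the spread between replicates rather than on counting error. Samples were grouped by the labelled genotype. Counts were analysed with edgeR 4.0.16 in R 4.3.3 (TMM, filterByExpr by genotype, a quasi-likelihood fit of all 17 libraries with 1 mean per genotype, Benjamini-Hochberg adjustment over 23062 genes, calls at an adjusted p under 0.05). DESeq2 1.42.0, limma 3.58.1 voom and other settings were alternatives. The scripts were tested on simulated data. Coordinates and exon lengths are from GENCODE M21 (GRCm38), matched by Ensembl identifier.

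The 10 genes, the partner and marker lists and the tests were chosen with earlier results of these data known. All 10 genes are described, partner genes are named if called (at most 4 per list and comparison, by p), and up to 5 genes each are named as most like Ank1 and Nefh. Some genes that this rule covers are not reported here. The labels tie each library to a separate sample, but not to litters or preparation dates. Depth was 8838334 to 227651681 counts per library.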

Additional observations from a re-analysis of the deposited data

Results flagged for a closer look

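In 30 groups looked at (10 genes in 3 genotypes), 5 had a library far from the rest of its genotype by Dixon's criterion. Chance gives about 1 in 20 groups if they are independent, but these groups share the same 17 libraries and are not. WT replicate 4, the shallowest library, was low for Sptb (144 CPM) and Sptbn4 (108 CPM) and high for Ank3 (445 CPM). WT replicate 2 was high for Ina (361 CPM), and CgA-KO/PS19 replicate 4 was low for Sptbn1 (1022 CPM).

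The effect of genotype differed between libraries with Ddx3y above and below 1 CPM, read as males and females. The interaction test in edgeR that gave this was chosen after the values were seen. For CgA-KO/PS19 against PS19, the log2 fold change was lower in the class above 1 CPM by -0.44 for Nefl (adjusted p = 0.0437), -1.25 for Nefm (0.00714) and -1.05 for Ina (0.00143). For CgA-KO/PS19 against WT it was lower by -1.04 for Ina (0.00473). These results rest on CgA-KO/PS19 replicates 1 to 3, which also held the highest myelin marker scores and mitochondrial shares, and the part of these in the difference was not tested.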

How the results depend on the processing

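Of the 9 genes tested in PS19 against WT, none passed by edgeR, while 1 did with DESeq2, 3 with limma voom with quality weights, 2 with these 2 genotypes alone, 4 with the striatum score and 3 with the myelin score as a covariate. In CgA-KO/PS19 against PS19 the count of 0 became 3 with voom, 1 with these 2 genotypes alone, 1 with the striatum score and 5 in libraries with Ddx3y above 1 CPM, and leaving out libraries gave 0 to 2 (1 without WT replicate 4, Sptbn4; 1 without CgA-KO/PS19 replicate 6, Nefh; 2 without both). In CgA-KO/PS19 against WT the count of 0 of 10 became 4 with the striatum score and 3 with Ddx3y above 1 CPM, and leaving out libraries gave 0 to 1 (Sptbn4, without WT replicate 4 alone or with CgA-KO/PS19 replicate 6). The replicate block called 0 members in each of the 3 comparisons. The labels do not say that replicate numbers pair the samples. Same-numbered libraries had correlations of deviations of -0.23 to 0.44, which cannot settle whether they share a litter or preparation. With near-identical libraries averaged, 10 pairs of genes covaried, against 13. The number of all genes called ranged from 128 to 3967, 168 to 6713 and 266 to 4963 in the 3 comparisons. Settings with Ddx3y, and the fit without both libraries, were added after seeing the data.

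Small differences changed sign. In PS19 against WT, with the striatum score Nefl was -0.10, Nefh -0.70, Ina -0.67 and Ank3 -0.038. Nefm was 0.0059 with voom, 0.0066 with no filter, 0.021 with the closest libraries averaged, 0.11 with the myelin score and 0.15 with Ddx3y above 1 CPM. Ank2 was 0.0087 (no filter), 0.020 (averaged), 0.010 (myelin) and 0.16 (Ddx3y above). Without single libraries, or without both WT replicate 4 and CgA-KO/PS19 replicate 6, Nefm ranged from -0.11 to 0.10, Ank2 from -0.074 to 0.071 and Sptbn4 from -0.046 to 0.14. Ank3 was -0.039 with Ddx3y below 1 CPM, and with Ddx3y above it Sptbn1 was 0.026 and Sptbn4 -0.043. In CgA-KO/PS19 against PS19, Nefl, Nefm and Ina were 0.049, 0.12 and 0.0025 with the striatum score and 0.080, 0.28 and 0.17 with Ddx3y below 1 CPM, Nefl and Nefm were 0.039 and 0.10 with the myelin score, and Ank2 was -0.060 with Ddx3y above. In CgA-KO/PS19 against WT, Nefl and Ank2 were -0.055 and -0.066 with the striatum score, Nefm, Nefh, Ina and Sptb were 0.22, 0.40, 0.14 and -0.044 with the myelin score, and Nefm and Ina were 0.077 and 0.32 with Ddx3y below. Sptbn1 was 0.0034 with DESeq2 size factors, 0.0037 with DESeq2, 0.026 with voom, 0.029 with at least 10 counts in every library and 0.11 with Ddx3y above, and without single libraries or those 2 together -0.040 to 0.024, and Nefh then ranged from -0.44 to 0.025. The cause of these moves was not tested. Both Ank1 contrasts with PS19 and all mean levels moved by less than 1 SD.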
